A study of Mus musculus with 14 samples.

Results

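The 46 genes described here are imprinted in mouse, which means that they are expressed mainly from the copy inherited from 1 parent. They were listed by name, with earlier results of these data known. Of the 46, 41 have an Ensembl identifier in the files, which hold 37991 genes in experiment B and 37620 in experiment A. Kcnq1ot1, Rian, Mirg, Snrpn and Peg13 were not analysed here. Levels were compared across mouse embryonic stem cells in different culture media by RNA sequencing.

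The cells of every group were C57BL/6 dual reporter embryonic stem cells, with mCherry under control of the mir-290 cluster and eGFP under that of mir-302. Experiment B held 10 libraries, 2 from each of 5 media, grown for 5 days from sparse plating. FBS/LIF is serum with leukemia inhibitory factor, VitC/LIF adds vitamin C at 500 µM, and L-Pro/LIF contains added L-proline, whose dose the labels do not give. The medium 2i/LIF adds the inhibitor pair known as 2i, directed at the kinases MEK and GSK3. F/A is serum-free N2B27 with 20 ng/ml of activin A and 12 ng/ml of bFGF, which carries cells towards the primed state of the epiblast. Experiment A held 4 single libraries of cells positive for both reporters. These were a day 0 library, titled untreated but taken from serum with LIF plus 100 µM vitamin C, a library after 5 days of L-proline at 1 mM, and libraries after 3 and 5 days of F/A, for which the labels give the same activin A dose and no bFGF dose. RNA came from RNeasy columns in experiment B and from Trizol in experiment A, and the 2 experiments were not pooled.

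Imprinting rests on control regions that carry DNA methylation set in the germ line of the mother or the father. After fertilization this mark is kept by the zinc finger protein Zfp57 with Trim28 and Dnmt1, while most of the genome is demethylated. Imprinted genes lie largely in clusters with shared control regions, and many act on fetal growth, the placenta or the brain. Cultured stem cells can lose imprints, so the level of such a gene can depend on how strongly it is transcribed and on which copies are open. The files do not separate the parental copies, and every value below is their sum.

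Promoter sequences from RefSeq (GRCm38.p6) were matched for 38 of the 46 genes, some with several starts. Each window runs from 250 bases before to 50 bases after a start. The hexamer TGCCGC, which Zfp57 binds when it is methylated, was searched on both strands of these 300 bases. It was present for 12 of the 38 genes (31.6%) and for 3527 of 27025 genes with a window (13.1%), and the median number of CpG per window was 17 and 7. A match describes letters and not binding. Of the sequences shown, those of Zdbf2, Mest and Plagl1 are the 250 bases before a start. These genes had large changes, and each is shown at a start that holds the hexamer. Capitals mark the hexamer on either strand (3, 2 and 1 matches). Another start of Zdbf2 and another of Mest held 0 matches. The windows of Phlda2 and Sfmbt2, which changed more in 2i/LIF than Mest, also held 0, as did that of Magel2. The run of 163 bases lies between the start of Peg3 on the minus strand and that of Usp29 on the plus strand, and is shown because these 2 neighbours changed in opposite directions in 2i/LIF. It holds 0 matches and 5 CpG.
Zdbf2, chr1:63200108-63200357, plus strand: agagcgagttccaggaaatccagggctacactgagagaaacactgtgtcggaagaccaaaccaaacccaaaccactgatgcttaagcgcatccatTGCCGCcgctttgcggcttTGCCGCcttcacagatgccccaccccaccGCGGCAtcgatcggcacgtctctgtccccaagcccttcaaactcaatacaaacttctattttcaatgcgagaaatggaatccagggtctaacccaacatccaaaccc
Mest, chr6:30737800-30738049, plus strand: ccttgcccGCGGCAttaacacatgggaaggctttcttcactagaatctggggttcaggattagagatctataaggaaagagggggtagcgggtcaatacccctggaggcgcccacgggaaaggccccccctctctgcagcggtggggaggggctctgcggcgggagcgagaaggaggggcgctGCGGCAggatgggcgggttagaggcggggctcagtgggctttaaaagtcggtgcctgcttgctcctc
Plagl1, chr10:13090582-13090831, plus strand: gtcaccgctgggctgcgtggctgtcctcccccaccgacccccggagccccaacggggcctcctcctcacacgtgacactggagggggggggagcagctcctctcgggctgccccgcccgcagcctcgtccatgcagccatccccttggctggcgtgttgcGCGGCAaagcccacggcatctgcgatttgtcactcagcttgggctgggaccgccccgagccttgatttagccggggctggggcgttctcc
Between Peg3 and Usp29, chr7:6730420-6730582, plus strand: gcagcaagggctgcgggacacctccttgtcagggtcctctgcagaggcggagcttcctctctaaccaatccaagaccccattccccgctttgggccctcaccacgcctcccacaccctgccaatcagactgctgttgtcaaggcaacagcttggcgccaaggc

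Mapped fragments in experiment B ranged from 17778399 to 26354444 per library, except for 6937945 in F/A replicate 1, and the counts of experiment A from 33162689 to 39711061. Levels are given as CPM (counts scaled to the library size, with TMM), and as FPKM, which is per length, where genes are compared with each other. A change is called at a Benjamini-Hochberg adjusted p under 0.05 in edgeR's quasi-likelihood F test over 16033 genes. Nothing in the labels says that the 2 libraries of a medium were separate cultures, so the p-values measure a spread that may be technical. Pluripotent markers summed to 3243 to 3462 CPM in FBS/LIF and to 847 to 1186 CPM in F/A. For 6 of the 41 genes under 90% of the estimate came from fragments unique to the gene: Gnas 36.3%, Plagl1 56.1%, Mest 73.2%, Airn 78.3%, Copg2 81.8% and Dlk1 87.5%. For 11 of the 41 an exon overlaps a coding or long non-coding gene on the other strand, and no strand setting is stated. Mest with Copg2, Gnas with Nespas, Igf2 with Igf2os, Ube3a with Snhg14 and Usp29 with Zim3 may therefore share reads. Rtl1 overlaps microRNA genes on the other strand, among them Mir127 and Mir136, so its reads may come from either strand.

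Of the 41 genes, 39 passed the filter on low counts and were tested, and Airn and Rasgrf1 did not. The broadest change was a fall in 2i/LIF, where 23 members were lower than in FBS/LIF and 2 were higher (30.4% of all genes called, 17.9% lower and 12.5% higher). Of the 23, 16 fell at least 2-fold and 9 at least 8-fold. In F/A 12 members were higher and 10 lower, which is 22 of 39 where 46.4% of all genes were called (24.4% higher and 22% lower). In L-Pro/LIF 9 were higher and 7 lower (24% of all genes called, 13.7% higher and 10.3% lower). This count of 16 fell when any 1 of the 4 libraries was left out, and so did the count over all genes. VitC/LIF against FBS/LIF gave 0 higher and 2 lower in edgeR (0.674% of all genes called, 0.362% higher and 0.312% lower). DESeq2 called 3 members higher and 6 lower, and 430 of all genes where edgeR called 108. In edgeR 15 members had an unadjusted p under 0.05, and the number of all genes below it was not counted. Both VitC/LIF calls were lost without any 1 of the 4 libraries, and fewer of all genes were called in each of these fits. L-Pro/LIF against VitC/LIF gave 11 higher and 5 lower (29.8% of all genes called, 16.8% higher and 13% lower). Without any 1 of its 4 libraries fewer members and fewer of all genes were called. The 4 comparisons with FBS/LIF share its libraries, and those of L-Pro/LIF and VitC/LIF serve in 2 comparisons each.

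The median log2 fold change of the 39 tested members was -0.84 in 2i/LIF, where that of all genes was -0.04. It was -0.27 in VitC/LIF (all genes -0.01), -0.01 in L-Pro/LIF (0.01), 0.27 in F/A (0.05) and 0.33 for L-Pro/LIF over VitC/LIF (0.02). In 2i/LIF and FBS/LIF the libraries did not overlap for 34 of the 39 members (68.1% of all genes). The same count was 30 for F/A (72%), 26 for L-Pro/LIF (64.8%), 28 for VitC/LIF (42.9%) and 36 for L-Pro/LIF over VitC/LIF (69.3%). The lowest mean of 23 members was in 2i/LIF, where 31.6% of all genes had theirs, and the highest mean of 13 members was in F/A (33.1% of all genes). Summed over the members, the level was 2637 and 2950.3 CPM in FBS/LIF, 2265 and 2292 in VitC/LIF, 2876 and 3046 in L-Pro/LIF, 1388 and 1403 in 2i/LIF, and 5095 and 3569 in F/A. The sum was thus lowest in both 2i/LIF libraries and highest in both F/A libraries, which differ from each other. Zdbf2 alone made up 1551 and 777 CPM of the F/A sums, against 138 and 175 in FBS/LIF. Meanwhile 10 members were called lower in F/A. Per length, Commd1 was the highest member in FBS/LIF, VitC/LIF and 2i/LIF (96.8, 112 and 110.4 FPKM) and Gnas in L-Pro/LIF and F/A (160.0 and 272 FPKM). At least 1 of the 5 comparisons was called for 34 of the 39 members, and none for Slc22a18, Asb4, Copg2, Trappc9 and Commd1. How many of all genes had at least 1 call was not counted, and F/A against FBS/LIF alone called 46.4% of them.

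**Figure D1:**
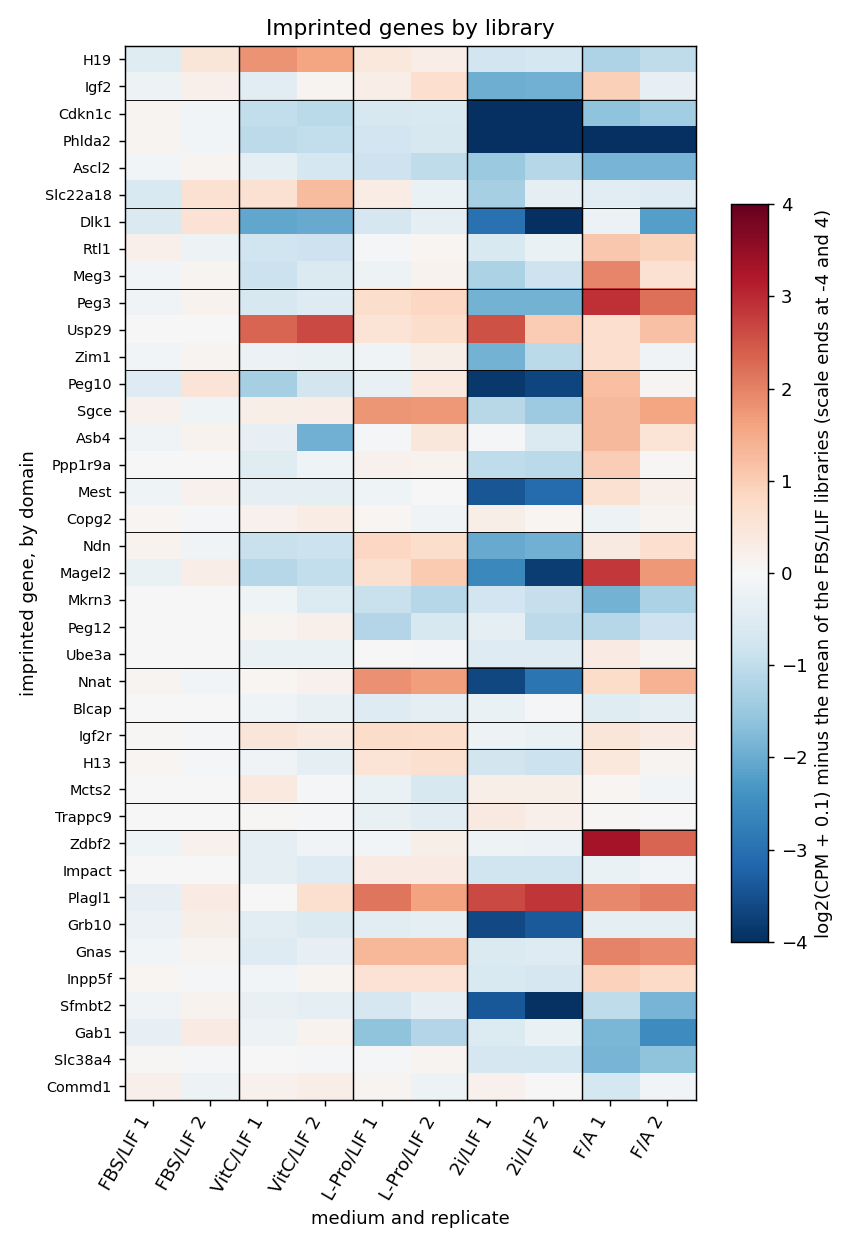
Level of the 39 tested imprinted genes (rows, grouped by domain) in each of the 10 libraries of experiment B (columns), as log2(CPM + 0.1) minus the mean of the FBS/LIF libraries, with colours ending at -4 and 4. Most rows are blue in both 2i/LIF libraries, and Zdbf2, Peg3, Magel2, Plagl1 and Gnas are red in both F/A libraries.

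The fall in 2i/LIF covered genes of either parental copy, as textbook knowledge assigns them. Of 19 tested genes assigned to the paternal copy 13 were lower and 2 higher (17.9% and 12.5% of all genes). The libraries of the 2 media did not overlap for any of the 19 (68.1% of all genes). The 19 include Sfmbt2 and Slc38a4, both lower, which are known to be imprinted chiefly in extraembryonic tissue. Of 10 tested genes of the maternal copy 5 were lower, and of 10 with a mixed or tissue-dependent pattern 5 were lower, beside the same 17.9% of all genes. Of the maternal genes only Cdkn1c and Phlda2, both of the Kcnq1ot1 domain, kept the call without each single library. Ascl2, Ppp1r9a and Zim1 did not. Of the lower genes in the other groups, Igf2, Dlk1 and Mkrn3 (paternal) and Gnas and Ube3a (mixed) did not keep it either. Other cell markers differed between these media too. The summed fibroblast markers (16 genes, mostly Tagln) stood at 117 to 131 CPM in FBS/LIF and 12.6 to 13.7 in 2i/LIF, and of 13 tested 1 rose and 7 fell. Lum, Postn and Fap were at 0 in both media. Neural markers summed to 157 to 165 and 54.1 to 56.7 CPM (4 of 4 lower), and primed epiblast markers to 711 and 129.7 to 140.4 (4 of 4 lower). Of 14 primitive endoderm and yolk sac markers Sparc was higher in 2i/LIF, Gata6, Dab2, Cubn and Pdgfra were lower, and the median log2 fold change was -1.86. Their sum of 199 to 288 CPM in FBS/LIF and 351 to 368 in 2i/LIF was mostly Sparc and Lama1. Their part in the fall of the imprinted genes was not tested, and in bulk RNA fewer cells of a type and less RNA per cell cannot be told apart.

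**Figure D2:**
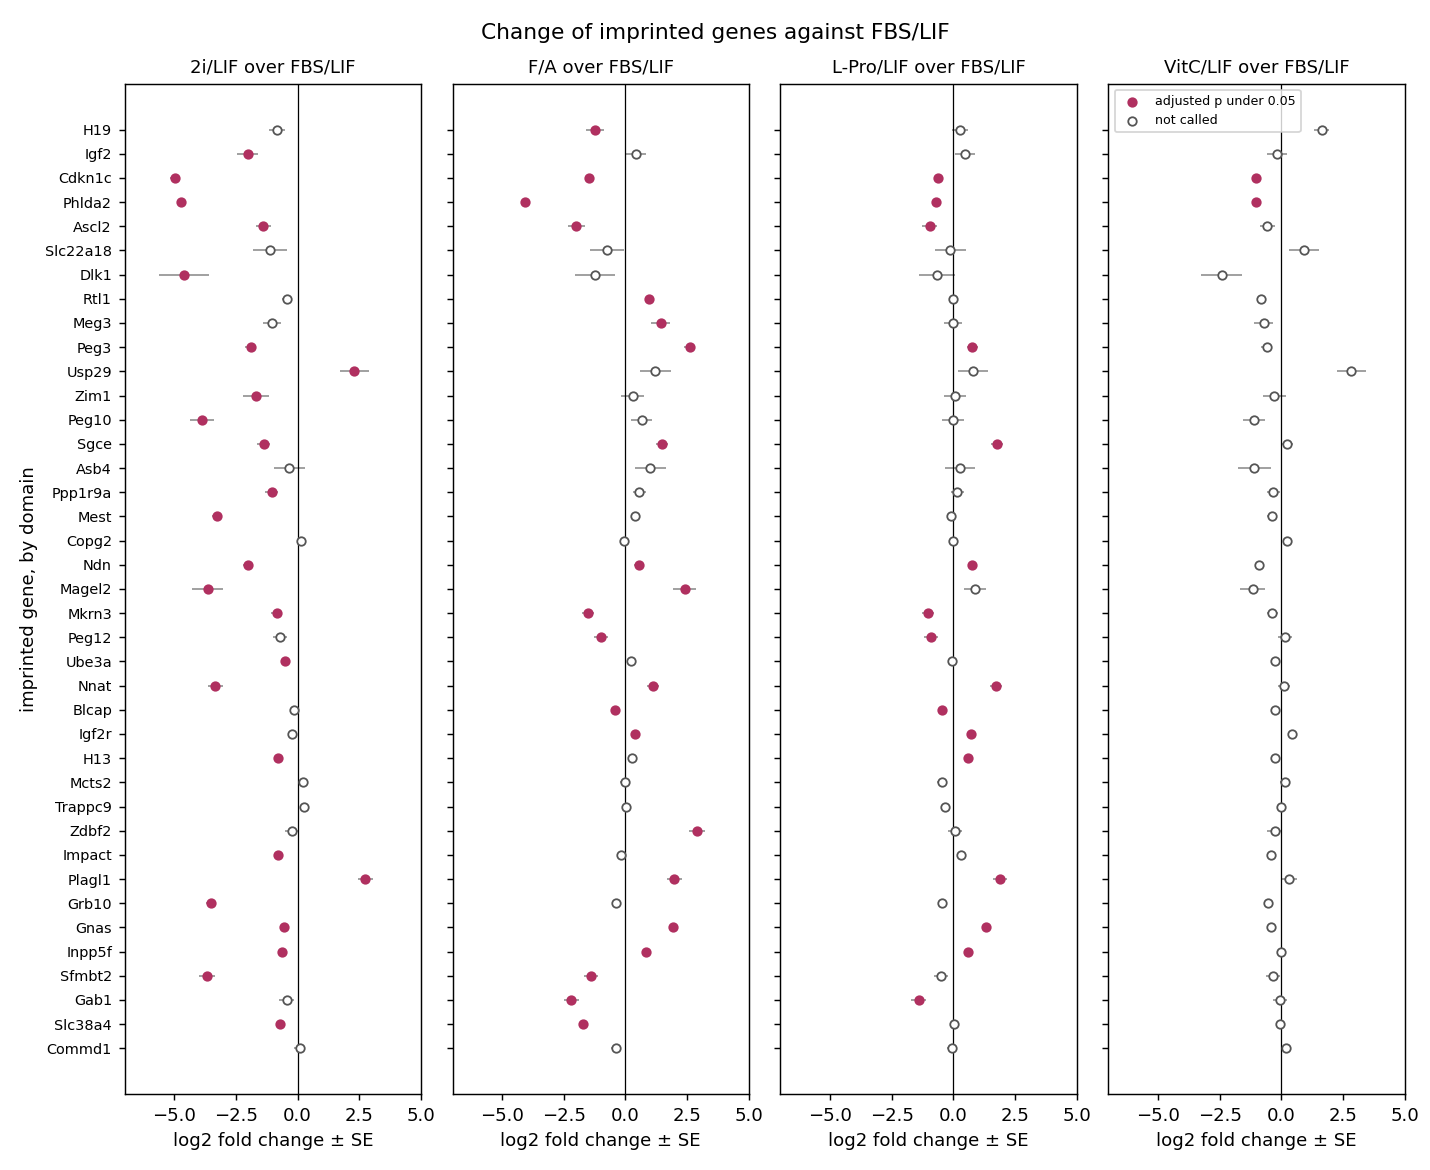
Log2 fold change ± SE of the 39 tested imprinted genes against FBS/LIF in 2i/LIF, F/A, L-Pro/LIF and VitC/LIF (2 libraries each), with filled points for an adjusted p under 0.05. The 2i/LIF panel has 23 filled points left of 0 and 2 right of it, and the VitC/LIF panel has 2 filled points, both left of 0.

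The steepest falls lay in the domain of Kcnq1ot1. Cdkn1c (ENSMUSG00000037664) stood at 69.7 and 60.2 CPM in FBS/LIF, 32.7 and 30.8 in VitC/LIF, 41.7 and 42.2 in L-Pro/LIF, 2.38 and 1.74 in 2i/LIF, and 21.3 and 24.7 in F/A. This gene of the maternal copy encodes p57Kip2, an inhibitor of cyclin-dependent kinases that restrains growth. Its 2i/LIF libraries lay far below all others (log2 fold change -4.97, SE 0.18, adjusted p = 1.71e-06), and it also fell in F/A (-1.49, SE 0.15, adjusted p = 0.000119). Phlda2 (ENSMUSG00000010760) stood at 49.6 and 43.4 CPM in FBS/LIF, 22.6 and 23.4 in VitC/LIF, 27.4 and 29.5 in L-Pro/LIF, 2.01 and 1.51 in 2i/LIF, and 2.79 and 2.75 in F/A. Phlda2, which limits the growth of the placenta, was low in 2i/LIF (log2 fold change -4.71, SE 0.17, adjusted p = 1.71e-06) and F/A (-4.07, SE 0.17, adjusted p = 8.48e-07), and neither medium overlapped FBS/LIF. Ascl2 (ENSMUSG00000009248) stood at 2.77 and 3.23 CPM in FBS/LIF, 2.26 and 1.79 in VitC/LIF, 1.65 and 1.42 in L-Pro/LIF, 1.01 and 1.29 in 2i/LIF, and 0.761 and 0.750 in F/A. Ascl2, a transcription factor that trophoblast cells need, fell in 2i/LIF (log2 fold change -1.38, SE 0.31, adjusted p = 0.00986) and in F/A (-1.98, SE 0.33, adjusted p = 0.00191). All 3 genes also fell in L-Pro/LIF, with log2 fold changes of -0.63 for Cdkn1c, -0.71 for Phlda2 and -0.97 for Ascl2. The L-Pro/LIF call was lost for Cdkn1c without FBS/LIF library 1 or either L-Pro/LIF library (adjusted p up to 0.12) and for Phlda2 without FBS/LIF library 1 or L-Pro/LIF library 1 (adjusted p up to 0.0711). For Ascl2 it was lost without any 1 of the 4 libraries (adjusted p 0.13 to 0.225), and also without the filter on low counts, in DESeq2 and on the 4 libraries alone (0.0917, 0.117 and 0.0544), and the 2i/LIF call without 2i/LIF library 1 or FBS/LIF library 2 (adjusted p up to 0.0776). Slc22a18, a transporter gene of the domain, stayed between 0.159 and 1.45 CPM.

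Cdkn1c and Phlda2 were also the 2 members called in VitC/LIF, where both libraries of each lay below both FBS/LIF libraries. Cdkn1c fell by 1.03 (SE 0.15, adjusted p = 0.0266) and Phlda2 by 1.02 (SE 0.14, adjusted p = 0.0216) on the log2 scale. The call of Cdkn1c was lost without any 1 of the 4 libraries (adjusted p 0.105 to 0.23), and so was that of Phlda2 (0.105 to 0.235). DESeq2 called 9 members among 430 genes, with H19, Igf2r and Usp29 higher and Cdkn1c, Phlda2, Gnas, Impact, Ndn and Rtl1 lower. L-Pro/LIF and VitC/LIF, both below FBS/LIF for these genes, were not called apart (adjusted p = 0.0701 and 0.133). The fibroblast markers summed to 153 to 159 CPM in VitC/LIF against 117 to 131 in FBS/LIF, with 1 of 13 called, higher.

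H19 and Igf2 share a control region and are expressed from opposite copies, H19 as a long non-coding RNA of the maternal copy and Igf2 as a fetal growth factor of the paternal copy. H19 (ENSMUSG00000000031) stood at 2.22 and 4.41 CPM in FBS/LIF, 11.0 and 9.48 in VitC/LIF, 4.22 and 3.75 in L-Pro/LIF, 1.80 and 1.91 in 2i/LIF, and 1.27 and 1.5 in F/A. Igf2 (ENSMUSG00000048583) stood at 5.87 and 7.69 CPM in FBS/LIF, 4.91 and 7.23 in VitC/LIF, 8.03 and 10.7 in L-Pro/LIF, 1.64 and 1.68 in 2i/LIF, and 13.1 and 5.35 in F/A. The 2 genes did not follow each other across the media: H19 was highest in both VitC/LIF libraries, and Igf2 was lowest in both 2i/LIF libraries. Igf2 fell in 2i/LIF (log2 fold change -2.02, SE 0.43, adjusted p = 0.00786), a call lost without 2i/LIF library 1 (adjusted p up to 0.0541). In VitC/LIF H19 had a log2 fold change of 1.63 that did not pass (SE 0.32, adjusted p = 0.0677). It passed on unique hits, without the filter on low counts and in DESeq2 (adjusted p = 0.0261, 0.0187 and 0.00251). Against VitC/LIF, H19 fell in L-Pro/LIF (log2 fold change -1.36, SE 0.31, adjusted p = 0.0112), which was lost without VitC/LIF library 1 or either L-Pro/LIF library (adjusted p up to 0.0783). Its fall in F/A (log2 fold change -1.23, SE 0.35, adjusted p = 0.0198) was lost without F/A library 1 or FBS/LIF library 2 (adjusted p up to 0.125), and also on the 4 libraries alone (0.0927), and the log2 fold change was -0.67 without FBS/LIF replicate 2.

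In the Dlk1-Meg3 domain both F/A libraries were the highest for Meg3 and Rtl1. Meg3 (ENSMUSG00000021268) stood at 93.8 and 108 CPM in FBS/LIF, 55.4 and 67.3 in VitC/LIF, 87.0 and 111 in L-Pro/LIF, 42.1 and 57.3 in 2i/LIF, and 390.3 and 154 in F/A. Meg3 is a long non-coding RNA of the maternal copy. It rose in F/A (log2 fold change 1.43, SE 0.38, adjusted p = 0.0146), but F/A replicate 1, the shallow library, was more than 2-fold above replicate 2. The call was lost without either FBS/LIF library or F/A library 1 (adjusted p up to 0.0892), and also on the 4 libraries alone (0.0614), with a log2 fold change of 0.60 without F/A replicate 1. In 2i/LIF both Meg3 libraries lay below FBS/LIF without passing (log2 fold change -1.02, adjusted p = 0.0707). DESeq2 called that difference (adjusted p = 0.0167), as did the fits without the filter on low counts and on the 4 libraries alone (0.00826 and 0.00949). Dlk1 (ENSMUSG00000040856) stood at 1.29 and 2.95 CPM in FBS/LIF, 0.386 and 0.405 in VitC/LIF, 1.19 and 1.5 in L-Pro/LIF, 0.159 and 0 in 2i/LIF, and 1.65 and 0.350 in F/A. Dlk1, a membrane protein related to Notch ligands and expressed from the paternal copy, was thus near the limit of detection. Its 2i/LIF libraries held 3 estimated counts together and those of FBS/LIF 91, a ratio of 25.9 after scaling (95% counting interval 8.59 to 128, counting error only). The ratio was 36.1 and 15.8 without FBS/LIF replicate 1 and 2, 13.3 without 2i/LIF replicate 2, and could not be given without 2i/LIF replicate 1, which held all 3 counts. The 2i/LIF call for Dlk1 (adjusted p = 0.0097) was lost without FBS/LIF library 2 or 2i/LIF library 2 (adjusted p up to 0.0569). Rtl1, a gene derived from a retrotransposon that the placental vessels need, ranged from 24.4 to 91.0 CPM and rose in F/A (log2 fold change 0.96, SE 0.17, adjusted p = 0.00275).

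The neighbours Peg3 and Usp29, whose starts lie 163 bases apart and which are both expressed from the paternal copy, moved in opposite directions in 2i/LIF and between L-Pro/LIF and VitC/LIF. Peg3 (ENSMUSG00000002265) stood at 73.5 and 90.4 CPM in FBS/LIF, 51.8 and 57.2 in VitC/LIF, 133 and 146 in L-Pro/LIF, 21.8 and 22 in 2i/LIF, and 621 and 376 in F/A. Usp29 (ENSMUSG00000051527) stood at 0.277 and 0.281 CPM in FBS/LIF, 1.82 and 2.26 in VitC/LIF, 0.459 and 0.514 in L-Pro/LIF, 2.12 and 0.673 in 2i/LIF, and 0.507 and 0.750 in F/A. Peg3, a zinc finger protein, was lowest in both 2i/LIF libraries and highest in both F/A libraries, while Usp29, a ubiquitin protease, was lowest in both FBS/LIF libraries. Peg3 fell in 2i/LIF (log2 fold change -1.90, SE 0.23, adjusted p = 0.00035) and rose in F/A (2.60, SE 0.23, adjusted p = 5.56e-05), and neither medium overlapped FBS/LIF. It also rose in L-Pro/LIF against FBS/LIF (0.77, SE 0.22, adjusted p = 0.0336), a call lost without any 1 of the 4 libraries (adjusted p 0.0637 to 0.186), and against VitC/LIF (1.36, SE 0.22, adjusted p = 0.00205). Usp29 rose in 2i/LIF (log2 fold change 2.30, SE 0.59, adjusted p = 0.0182), where its 2 libraries differed from each other by more than 3-fold. The gene was under 3 CPM in all libraries. The 2i/LIF call was lost without either FBS/LIF library or 2i/LIF library 1 (adjusted p up to 0.178), with a log2 fold change of 1.25 without 2i/LIF replicate 1. In VitC/LIF Usp29 had the largest rise among the members, 2.84 on the log2 scale, and did not pass (adjusted p = 0.0827). DESeq2, unique hits and the fit without the filter called it (adjusted p = 0.0188, 0.0335 and 0.0277). Against VitC/LIF, Usp29 fell in L-Pro/LIF (log2 fold change -2.05, SE 0.55, adjusted p = 0.022), a call lost without any 1 of the 4 libraries (adjusted p 0.0647 to 0.115). Zim1 (ENSMUSG00000002266) stood at 0.971 and 1.17 CPM in FBS/LIF, 0.883 and 0.868 in VitC/LIF, 0.963 and 1.26 in L-Pro/LIF, 0.212 and 0.448 in 2i/LIF, and 1.78 and 0.950 in F/A. Zim1, a zinc finger gene of the maternal copy beside Peg3, was lower in 2i/LIF (log2 fold change -1.69, SE 0.51, adjusted p = 0.0365). This too was lost without any 1 of the 4 libraries (adjusted p 0.0511 to 0.212), and also in DESeq2 and on the 4 libraries alone (0.0763 and 0.0507), and in DESeq2 (adjusted p = 0.0763).

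**Figure D3:**
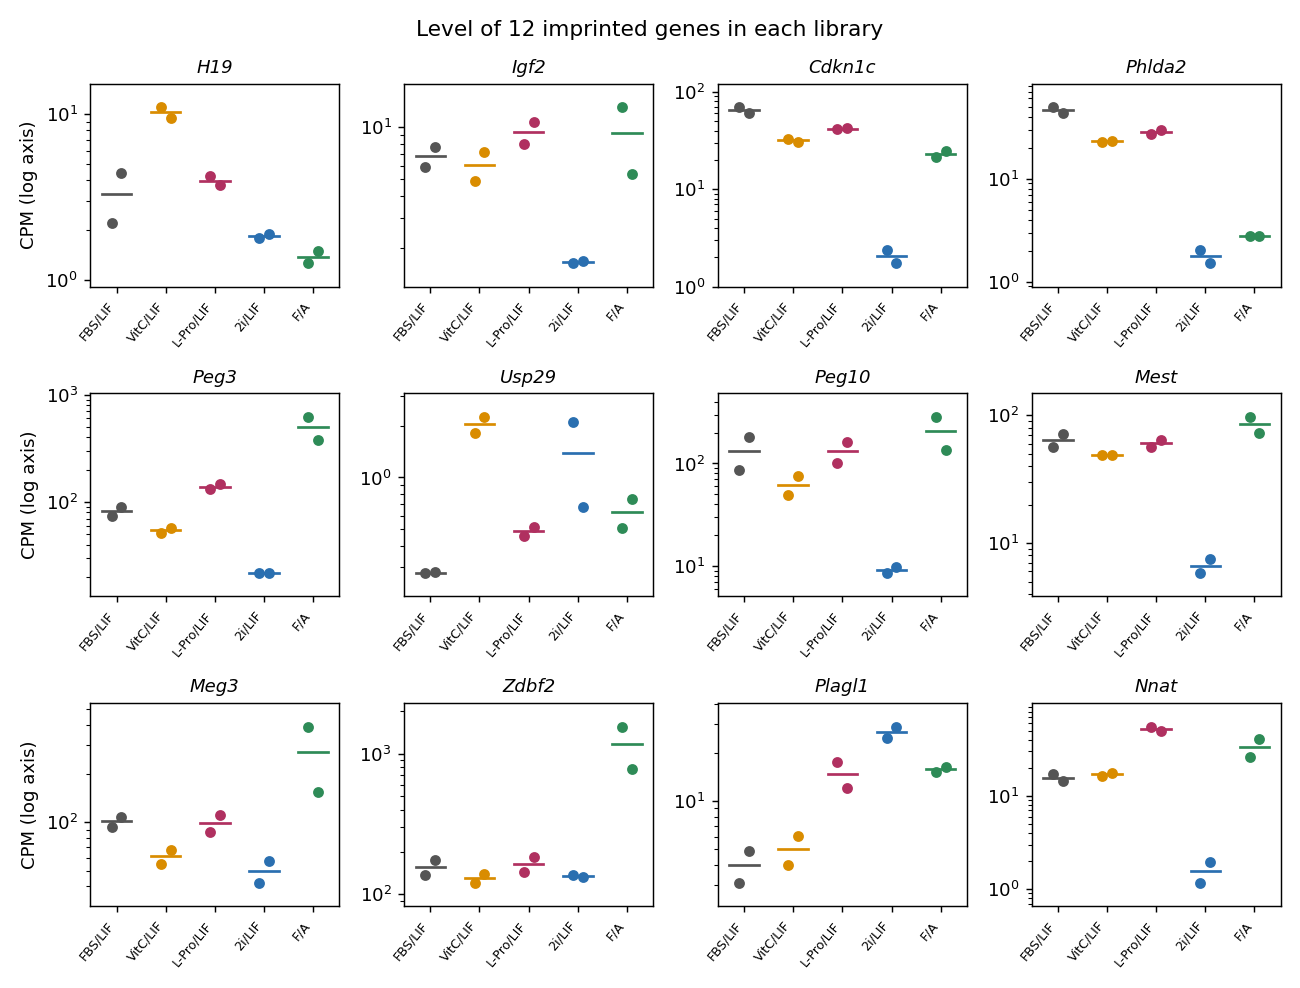
Level of 12 imprinted genes in CPM (log axis) in the 10 libraries of experiment B, with points for libraries and a line at the mean of each medium (n = 2). Peg3 is lowest in 2i/LIF and highest in F/A, whereas its neighbour Usp29 is lowest in FBS/LIF, and the F/A libraries of Meg3, Peg10 and Zdbf2 lie far apart.

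The Peg10 domain holds Peg10 and Sgce, head to head and both of the paternal copy. Peg10 (ENSMUSG00000092035) stood at 86.7 and 179 CPM in FBS/LIF, 49.2 and 74.9 in VitC/LIF, 100.4 and 162 in L-Pro/LIF, 8.53 and 9.70 in 2i/LIF, and 285 and 134 in F/A. Sgce (ENSMUSG00000004631) stood at 3.00 and 2.34 CPM in FBS/LIF, 3.15 and 3.18 in VitC/LIF, 9.31 and 9.05 in L-Pro/LIF, 1.17 and 0.897 in 2i/LIF, and 6.72 and 8.20 in F/A. Peg10, a retrotransposon-derived gene that the placenta needs, fell in 2i/LIF (log2 fold change -3.87, SE 0.49, adjusted p = 0.00054) and was called in no other comparison. Its libraries differed about 2-fold from each other within FBS/LIF and within F/A. Sgce, a sarcoglycan of the cell membrane, fell in 2i/LIF (-1.37, SE 0.26, adjusted p = 0.00415) and rose in L-Pro/LIF (1.78, SE 0.23, adjusted p = 0.00099) and F/A (1.49, SE 0.24, adjusted p = 0.00141). All Sgce libraries of L-Pro/LIF and F/A lay above those of the other 3 media. Ppp1r9a, the gene of neurabin, ranged from 15.8 to 65.7 CPM and fell in 2i/LIF (log2 fold change -1.05), which was lost without any 1 of the 4 libraries (adjusted p 0.0514 to 0.0839). Asb4 stayed between 0.116 and 1.90 CPM and was called nowhere.

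Mest and Copg2 overlap on opposite strands, and only the first of them was called. Mest (ENSMUSG00000051855) stood at 56.8 and 71.9 CPM in FBS/LIF, 49.3 and 49.1 in VitC/LIF, 56.2 and 64.5 in L-Pro/LIF, 5.83 and 7.46 in 2i/LIF, and 97.4 and 73.5 in F/A. Copg2 (ENSMUSG00000025607) stood at 71.1 and 63.6 CPM in FBS/LIF, 75.8 and 83.2 in VitC/LIF, 70.9 and 61.0 in L-Pro/LIF, 79.0 and 70.5 in 2i/LIF, and 58.7 and 72.1 in F/A. Mest, a hydrolase gene of the paternal copy, lay far lower in both 2i/LIF libraries than in any other (log2 fold change -3.28, SE 0.20, adjusted p = 1.4e-05). Copg2, a coat protein subunit, had overlapping libraries in 2i/LIF and FBS/LIF (log2 fold change 0.15, adjusted p = 0.477).

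The Snrpn domain, whose paternal loss causes Prader-Willi syndrome in humans, held genes that moved together and genes that did not. Ndn (ENSMUSG00000033585) stood at 12.4 and 10.2 CPM in FBS/LIF, 6.07 and 6.19 in VitC/LIF, 19.9 and 18.3 in L-Pro/LIF, 2.70 and 2.91 in 2i/LIF, and 14.5 and 18.1 in F/A. Magel2 (ENSMUSG00000056972) stood at 1.71 and 2.48 CPM in FBS/LIF, 0.883 and 0.983 in VitC/LIF, 3.30 and 4.39 in L-Pro/LIF, 0.265 and 0.0561 in 2i/LIF, and 15.3 and 7.15 in F/A. Ndn and Magel2, both of the MAGE family, were lowest in both 2i/LIF libraries and next lowest in VitC/LIF. Ndn fell in 2i/LIF (log2 fold change -2.01, SE 0.19, adjusted p = 0.000103) and rose in L-Pro/LIF against VitC/LIF (1.64, SE 0.18, adjusted p = 0.000287). It also rose against FBS/LIF in L-Pro/LIF (0.75) and F/A (0.53), calls that were lost without either L-Pro/LIF library or FBS/LIF library 2 (adjusted p up to 0.123) and without either FBS/LIF library or F/A library 2 (adjusted p up to 0.301), and also without the filter on low counts, in DESeq2 and on the 4 libraries alone (0.152, 0.0532 and 0.164), with a log2 fold change of 0.26 without F/A replicate 2. Magel2 fell in 2i/LIF (log2 fold change -3.63, SE 0.63, adjusted p = 0.00278), where it was near the limit of detection. With 1 library left out that log2 fold change ran from -5.07 to -2.96. Magel2 rose in F/A (2.40, SE 0.47, adjusted p = 0.00378). Its rise in L-Pro/LIF over VitC/LIF (2.04) was lost without either VitC/LIF library or L-Pro/LIF library 2. Mkrn3 (ENSMUSG00000070527) stood at 15.7 and 15.6 CPM in FBS/LIF, 13.9 and 10.6 in VitC/LIF, 8.35 and 7.03 in L-Pro/LIF, 9.11 and 8.30 in 2i/LIF, and 4.18 and 6.45 in F/A. Mkrn3, a ubiquitin ligase gene, went the other way in F/A (log2 fold change -1.53, SE 0.24, adjusted p = 0.00138) and L-Pro/LIF (-1.02, SE 0.23, adjusted p = 0.0137), and was also lower in 2i/LIF (-0.84). The last 2 calls were lost without any 1 of the 4 libraries (adjusted p 0.0547 to 0.0953) and without any 1 of the 4 libraries (adjusted p 0.093 to 0.14). Peg12, a GSK3-binding protein of the FRAT family, ranged from 2.94 to 7.81 CPM and fell in F/A (-0.98) and in L-Pro/LIF against FBS/LIF (-0.90) and VitC/LIF (-1.06). These calls were lost without either FBS/LIF library or F/A library 1 (adjusted p up to 0.0922), without any 1 of the 4 libraries (adjusted p 0.0639 to 0.261), and also with RLE scaling and on the 4 libraries alone (0.0506 and 0.0507) and without either VitC/LIF library or L-Pro/LIF library 1 (adjusted p up to 0.151). Ube3a, the ubiquitin ligase of Angelman syndrome, ranged only from 159.8 to 284 CPM, and its fall in 2i/LIF (-0.50) was lost without FBS/LIF library 1 or either 2i/LIF library (adjusted p up to 0.0676).

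Nnat lies within an intron of Blcap, and the 2 genes differed in range. Nnat (ENSMUSG00000067786) stood at 17.0 and 14.3 CPM in FBS/LIF, 16.4 and 17.5 in VitC/LIF, 55.2 and 49.4 in L-Pro/LIF, 1.17 and 1.96 in 2i/LIF, and 26.0 and 40.7 in F/A. Blcap (ENSMUSG00000067787) stood at 22 and 22.1 CPM in FBS/LIF, 19.6 and 17.9 in VitC/LIF, 15.4 and 16.8 in L-Pro/LIF, 18.3 and 21.5 in 2i/LIF, and 15.6 and 17.0 in F/A. Nnat, a small membrane protein of the paternal copy, fell in 2i/LIF (log2 fold change -3.32, SE 0.29, adjusted p = 6.62e-05) and rose in L-Pro/LIF (1.74, SE 0.24, adjusted p = 0.00123) and F/A (1.10, SE 0.24, adjusted p = 0.00641). Without F/A replicate 2 the F/A log2 fold change was 0.64 (adjusted p = 0.0448). Blcap kept within 15.4 to 22.1 CPM and did not pass in 2i/LIF (-0.15, adjusted p = 0.447). Its small falls in F/A (-0.43) and L-Pro/LIF (-0.45) were lost without either FBS/LIF library or F/A library 1 (adjusted p up to 0.103), and also on the 4 libraries alone (0.0992) and without any 1 of the 4 libraries (adjusted p 0.111 to 0.22), and also without the filter on low counts (0.0784).

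Igf2r (ENSMUSG00000023830) stood at 133 and 126 CPM in FBS/LIF, 181 and 167 in VitC/LIF, 218 and 209 in L-Pro/LIF, 114 and 108 in 2i/LIF, and 181 and 162 in F/A. Igf2r, a receptor of the maternal copy that removes Igf2 from the cell surface, was higher in both L-Pro/LIF libraries than in any other. It rose there against FBS/LIF (log2 fold change 0.72, SE 0.11, adjusted p = 0.00187) and in F/A (0.40, SE 0.11, adjusted p = 0.0159), and the F/A call was lost without either FBS/LIF library (adjusted p up to 0.104), and also without the filter on low counts and on the 4 libraries alone (0.141 and 0.174). Airn, the long non-coding RNA that silences Igf2r in other tissues, was at 1 count in FBS/LIF, 3 in VitC/LIF, 5 in L-Pro/LIF, 0 in 2i/LIF and 14 in F/A. F/A over FBS/LIF gave a ratio of 21.6 for Airn with a 95% counting interval of 3.28 to 912. The ratio was 10.7 without F/A replicate 1 or FBS/LIF replicate 1, and 49.0 without F/A replicate 2. Rasgrf1, which activates Ras, had 5 counts in L-Pro/LIF, 2 in F/A and 0 in the other 3 media. Neither gene entered the test.

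Zdbf2, Plagl1 and Gnas were high in F/A. Zdbf2 (ENSMUSG00000027520) stood at 138 and 175 CPM in FBS/LIF, 120.4 and 139.6 in VitC/LIF, 145 and 183 in L-Pro/LIF, 136 and 132 in 2i/LIF, and 1551 and 777 in F/A. Plagl1 (ENSMUSG00000019817) stood at 3.10 and 4.87 CPM in FBS/LIF, 3.97 and 6.07 in VitC/LIF, 17.5 and 12.1 in L-Pro/LIF, 24.8 and 29.0 in 2i/LIF, and 15.1 and 16.4 in F/A. Gnas (ENSMUSG00000027523) stood at 89.9 and 103 CPM in FBS/LIF, 68.0 and 76.2 in VitC/LIF, 242 and 242 in L-Pro/LIF, 63.9 and 66.9 in 2i/LIF, and 381 and 354 in F/A. Zdbf2, a zinc finger gene of the paternal copy, lay between 120.4 and 183 CPM in the 4 LIF media and rose in F/A (log2 fold change 2.89, SE 0.31, adjusted p = 0.000173), with replicate 1 about 2-fold above replicate 2. Per length the mean of Zdbf2 was 14.9 FPKM in FBS/LIF, 11.7 in VitC/LIF, 23.9 in L-Pro/LIF, 11.3 in 2i/LIF and 156 in F/A. The higher FPKM in L-Pro/LIF was not tested. Plagl1, a zinc finger transcription factor, was 1 of the 2 members that rose in 2i/LIF (log2 fold change 2.75, SE 0.30, adjusted p = 0.000222), and it also rose in F/A (1.98, SE 0.30, adjusted p = 0.00106) and L-Pro/LIF (1.89, SE 0.29, adjusted p = 0.00229). Its libraries of these 3 media lay above all of FBS/LIF and VitC/LIF. Gnas, which encodes the stimulatory G protein subunit, rose in F/A (log2 fold change 1.93, SE 0.12, adjusted p = 8.94e-06) and L-Pro/LIF (1.33, SE 0.12, adjusted p = 0.000138) and was slightly lower in 2i/LIF (-0.56), a call lost without 2i/LIF library 1 or FBS/LIF library 2 (adjusted p up to 0.0643).

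Grb10 and Sfmbt2 fell in 2i/LIF, and Gab1 and Slc38a4 fell furthest in F/A. Grb10 (ENSMUSG00000020176) stood at 381 and 529 CPM in FBS/LIF, 334 and 301 in VitC/LIF, 325 and 339 in L-Pro/LIF, 36.3 and 43.3 in 2i/LIF, and 349 and 348 in F/A. Grb10, an adaptor that dampens insulin signalling, fell in 2i/LIF (log2 fold change -3.52, SE 0.19, adjusted p = 6.29e-06) and was called in no other comparison. Sfmbt2 (ENSMUSG00000061186) stood at 104 and 126 CPM in FBS/LIF, 93.6 and 89.9 in VitC/LIF, 72.4 and 90.4 in L-Pro/LIF, 10.8 and 7.29 in 2i/LIF, and 57.3 and 31.7 in F/A. Sfmbt2, a Polycomb-related protein, fell in 2i/LIF (log2 fold change -3.67, SE 0.31, adjusted p = 5.94e-05) and less in F/A (-1.38, SE 0.28, adjusted p = 0.0047). Per length the mean of Sfmbt2 was 31.0 FPKM in FBS/LIF and 1.13 in 2i/LIF, a steeper fall than in CPM. Gab1 (ENSMUSG00000031714) stood at 86.4 and 138 CPM in FBS/LIF, 94.3 and 120.5 in VitC/LIF, 36.0 and 48.7 in L-Pro/LIF, 74.1 and 90.5 in 2i/LIF, and 30.8 and 19 in F/A. Gab1, a docking protein of growth factor receptors, fell in F/A (log2 fold change -2.19, SE 0.31, adjusted p = 0.000743) and L-Pro/LIF (-1.40, SE 0.29, adjusted p = 0.0096). Gab1 was also lower in L-Pro/LIF than in VitC/LIF (-1.34), and these L-Pro/LIF calls were lost without L-Pro/LIF library 1 or FBS/LIF library 2 (adjusted p up to 0.0659) and without L-Pro/LIF library 1 or VitC/LIF library 2 (adjusted p up to 0.06). Slc38a4 (ENSMUSG00000022464) stood at 321 and 301 CPM in FBS/LIF, 308 and 299.9 in VitC/LIF, 303 and 331 in L-Pro/LIF, 194 and 191 in 2i/LIF, and 85.6 and 102 in F/A. Slc38a4, an amino acid transporter, lay between 299.9 and 331 CPM in FBS/LIF, VitC/LIF and L-Pro/LIF, was lower in 2i/LIF (log2 fold change -0.69, SE 0.12, adjusted p = 0.0033) and lowest in F/A (-1.73, SE 0.13, adjusted p = 2.17e-05). Sfmbt2, Gab1 and Slc38a4 are known to be imprinted chiefly in extraembryonic tissue.

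The remaining members are given by their range. Inpp5f, a phosphoinositide phosphatase, ranged from 19.8 to 60.5 CPM, lower in 2i/LIF (-0.65) and higher in F/A (0.84) and L-Pro/LIF (0.58). H13, the signal peptide peptidase, ranged from 17.3 to 49.0 CPM, lower in 2i/LIF (-0.80) and higher in L-Pro/LIF (0.60). The L-Pro/LIF calls were lost for Inpp5f without either L-Pro/LIF library or FBS/LIF library 2 (adjusted p up to 0.0794) and for H13 without either L-Pro/LIF library or FBS/LIF library 2 (adjusted p up to 0.0832). Impact, a regulator of the translation kinase Gcn2, ranged from 170.1 to 374 CPM and was lower in 2i/LIF (-0.80) and higher in L-Pro/LIF than in VitC/LIF (0.76). Mcts2 ranged from 8.02 to 16.4 CPM. Its fall in L-Pro/LIF against VitC/LIF (-0.63, adjusted p = 0.0463) was lost without VitC/LIF library 1 or L-Pro/LIF library 2 (adjusted p up to 0.314), and also without the filter on low counts and on the 4 libraries alone (0.0532 and 0.0941), with -0.38 without VitC/LIF replicate 1. Trappc9 (12.5 to 21.5 CPM) and Commd1 (40.8 to 79.6 CPM) were called nowhere.

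L-Pro/LIF and VitC/LIF differed from each other in 16 members. In L-Pro/LIF the test called Magel2, Gnas, Ndn, Nnat, Plagl1, Sgce, Peg3, H13, Rtl1, Impact and Inpp5f higher, and Usp29, H19, Gab1, Peg12 and Mcts2 lower. Gnas, Ndn, Nnat, Plagl1, Sgce, Peg3, H13 and Impact kept this call without each single library, as did none of the 5 lower genes. Gnas was at 242.0 and 241.9 CPM in L-Pro/LIF and 68.0 and 76.2 in VitC/LIF (log2 fold change 1.75, SE 0.12, adjusted p = 2.2e-05). Fibroblast markers summed to 294 to 308 CPM in L-Pro/LIF and 153 to 159 in VitC/LIF, with 8 of 13 higher and 1 lower. Against FBS/LIF, 11 of the 13 were higher in L-Pro/LIF, and neural markers summed to 323 to 355 against 157 to 165 CPM. That sum was mostly Nes (277 and 308 CPM against 74.4 and 75.6), and of 4 neural markers Nes was higher and Tubb3 lower. In F/A neural markers summed to 395 to 533 CPM, again mostly Nes (317 and 462), with Nes and Map2 higher and Tubb3 lower. Also in F/A, fibroblast markers summed to 160.0 to 192 CPM, and primitive endoderm and yolk sac markers to 342 to 419 against 199 to 288, with 10 of 14 higher and 1 lower. In L-Pro/LIF 7 of 8 pluripotent markers were lower than in FBS/LIF, and 4 of 4 primed epiblast markers were higher. Against VitC/LIF 6 of the 8 were lower and 1 higher, and the 4 were again higher. Of 7 trophoblast markers 3 were higher in L-Pro/LIF than in FBS/LIF and 1 lower. The part of all these markers in the changes of imprinted genes was not tested.

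Genes that act on imprints or on DNA methylation, Tet1, Tet2 and Tet3 among them, differed between the media as well. Of 19 such genes, all tested, 3 were higher and 6 lower in 2i/LIF, 3 and 11 in F/A, 2 and 10 in L-Pro/LIF, and 1 was lower in VitC/LIF (30.4%, 46.4%, 24% and 0.674% of all genes called). Zfp57 stood at 118 and 139 CPM in FBS/LIF, 132 and 145 in VitC/LIF, 25.6 and 27.0 in L-Pro/LIF, 236 and 281 in 2i/LIF, and 41.7 and 33.7 in F/A. Zfp57, which binds the methylated hexamer, was highest in 2i/LIF (log2 fold change 1.01, SE 0.15, adjusted p = 0.00108) and fell in L-Pro/LIF (-2.29) and F/A (-1.77). Dnmt3l stood at 301 and 307 CPM in FBS/LIF, 159 and 159.5 in VitC/LIF, 42.9 and 51.7 in L-Pro/LIF, 115 and 98.1 in 2i/LIF, and 0.507 and 0.400 in F/A. Dnmt3l, the partner of the de novo methyltransferases, was highest in both FBS/LIF libraries and was the regulator called in VitC/LIF (log2 fold change -0.93, SE 0.13, adjusted p = 0.0216). Dnmt3b stood at 633 and 631 CPM in FBS/LIF, 535 and 508 in VitC/LIF, 965 and 919 in L-Pro/LIF, 137 and 126 in 2i/LIF, and 665 and 829 in F/A. Dnmt3b, a de novo methyltransferase, fell in 2i/LIF (-2.27), as did Dnmt3a (-2.77), while Uhrf1, which guides Dnmt1 to replicated DNA, rose (1.33). Dppa3, which protects imprints in the early embryo, had 2028 counts in FBS/LIF, 2370 in VitC/LIF, 501 in L-Pro/LIF, 292 in 2i/LIF and 1 in F/A. Whether these levels bear on the imprinted genes was not tested.

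Of 22 tested imprinted genes and neighbours outside the list, 4 were higher and 5 lower in 2i/LIF, 8 and 6 in F/A, 4 and 3 in L-Pro/LIF, and 6 and 3 for L-Pro/LIF over VitC/LIF. Of all genes 30.4%, 46.4%, 24% and 29.8% were called in these comparisons. In 2i/LIF the median log2 fold change of the 22 was -0.60, and that of all genes -0.04. Atp10a, beside Ube3a, fell there (log2 fold change -4.91, SE 0.28, adjusted p = 8.68e-06), and Calcr and Pon2, beside Sgce, fell as well (-3.93 and -2.86). Dio3, at the far end of the Dlk1-Meg3 domain, rose (log2 fold change 2.15, SE 0.44, adjusted p = 0.00622). Ddc was also above FBS/LIF (27.6 and 24.1 CPM) in 2i/LIF (59.9 and 54.1). So was Tspan32, at 0.647 and 0.750 CPM in FBS/LIF and 2.33 and 2.35 in 2i/LIF.

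The 4 single libraries of experiment A allow no test, and a gene is counted where it differs at least 2-fold with at least 1 CPM in the higher library. From day 0 to L-Pro day 5, 21 of 39 members were higher by this rule and 3 lower (35.4% of all genes, 20% higher and 15.5% lower). From day 0 to F/A day 3 it was 15 higher and 5 lower of 38 (30.8% of all genes, 17.3% and 13.5%). At F/A day 5 it was 17 and 6 of 39 (37.4%, 21.1% and 16.2%), and from F/A day 3 to day 5 it was 4 and 6 of 37 (19.8%, 10.2% and 9.55%). The median log2 ratio of the members was 1.10 for L-Pro day 5, 0.67 for F/A day 3 and 0.60 for F/A day 5, against -0.00 to 0.03 for all genes. Fibroblast markers summed to 38.9 CPM at day 0, 1188 at L-Pro day 5, 180.3 at F/A day 3 and 390 at F/A day 5, and neural markers to 81.2, 858, 182 and 826. Of the neural sum Nes made up 5.58, 788, 114 and 763 CPM, while Tubb3 was highest at day 0 (70.8 CPM). Their part in the ratios was not tested.

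Igf2 stood at 1.06 CPM at day 0, 25.3 at L-Pro day 5, 13.3 at F/A day 3 and 18.6 at F/A day 5. Its day 0 level of 1.06 (95% counting interval 0.745 to 1.47) rests on 36 counts, and the other libraries held 489 to 993. Igf2 had the highest ratio of the 39 members at L-Pro day 5 (log2 ratio 4.57). Peg3 stood at 40.3 CPM at day 0, 294 at L-Pro day 5, 182 at F/A day 3 and 953 at F/A day 5. Peg3 had the highest ratio at F/A day 5 (4.56). Peg10 stood at 139.7 CPM at day 0, 1318 at L-Pro day 5, 237 at F/A day 3 and 398 at F/A day 5. Nnat stood at 15.5 CPM at day 0, 119 at L-Pro day 5, 36.4 at F/A day 3 and 56.2 at F/A day 5. Sfmbt2 stood at 35.1 CPM at day 0, 245 at L-Pro day 5, 32.8 at F/A day 3 and 53.1 at F/A day 5. These 3 genes were all highest at L-Pro day 5, with log2 ratios to day 0 of 3.24, 2.94 and 2.80. Magel2 stood at 0.945 CPM at day 0, 13.5 at L-Pro day 5, 12.2 at F/A day 3 and 21.4 at F/A day 5. Ndn stood at 2.19 CPM at day 0, 19.2 at L-Pro day 5, 20.1 at F/A day 3 and 12.2 at F/A day 5. Mest stood at 30.5 CPM at day 0, 117 at L-Pro day 5, 204 at F/A day 3 and 74.2 at F/A day 5. All 3 were lowest at day 0, and Ndn and Mest were highest at F/A day 3. Plagl1 stood at 5.49 CPM at day 0, 56.9 at L-Pro day 5, 23.0 at F/A day 3 and 24.3 at F/A day 5. Meg3 stood at 138 CPM at day 0, 442 at L-Pro day 5, 610.0 at F/A day 3 and 699 at F/A day 5. Gnas stood at 29.3 CPM at day 0, 99.6 at L-Pro day 5, 76.4 at F/A day 3 and 148 at F/A day 5. Each of these was at least 2-fold above day 0 in every later library.

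Fewer members were lower than at day 0. Usp29 stood at 4.67 CPM at day 0, 0.332 at L-Pro day 5, 0.815 at F/A day 3 and 0.640 at F/A day 5. Its log2 ratios to day 0 were -3.81, -2.52 and -2.87, while Peg3 was higher than at day 0 in the same libraries. Slc22a18 stood at 1.92 CPM at day 0, 0.357 at L-Pro day 5, 0.163 at F/A day 3 and 0.152 at F/A day 5. Gab1 stood at 407 CPM at day 0, 150.1 at L-Pro day 5, 173 at F/A day 3 and 63.1 at F/A day 5. Both were at least 2-fold lower than at day 0 in all 3 later libraries. Phlda2 stood at 21.2 CPM at day 0, 45.5 at L-Pro day 5, 18.2 at F/A day 3 and 4.88 at F/A day 5. Cdkn1c stood at 10.4 CPM at day 0, 30.0 at L-Pro day 5, 61.8 at F/A day 3 and 38.2 at F/A day 5. Cdkn1c was thus lowest at day 0, and Phlda2 was above day 0 at L-Pro day 5 only.

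The 2 experiments can be set side by side only with their differences in mind, since day 0 of experiment A held vitamin C at 100 µM, VitC/LIF held 500 µM and FBS/LIF none. Of the 11 members higher in L-Pro/LIF than in VitC/LIF, 11 were higher at L-Pro day 5 than at day 0, 10 of them at least 2-fold. The same held for 94.9% of all genes called higher there, and for 67.9% at least 2-fold, among those with more than 3 counts in both single libraries. Of the 5 lower members 4 were lower (93.9% of all genes called lower) and H19 was at least 2-fold higher. Of the 7 members lower in L-Pro/LIF than in FBS/LIF, 2 were lower at L-Pro day 5 than at day 0 (92.9% of all genes called lower), and Cdkn1c and Phlda2 were at least 2-fold higher. Of the 12 members higher in F/A than in FBS/LIF, 12 were higher at F/A day 5 than at day 0, 10 at least 2-fold (92.6% and 57.7% of all genes called higher). Of the 10 lower members 7 were lower (91.5% of all genes called lower), and Cdkn1c was at least 2-fold higher.

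**Figure D4:**
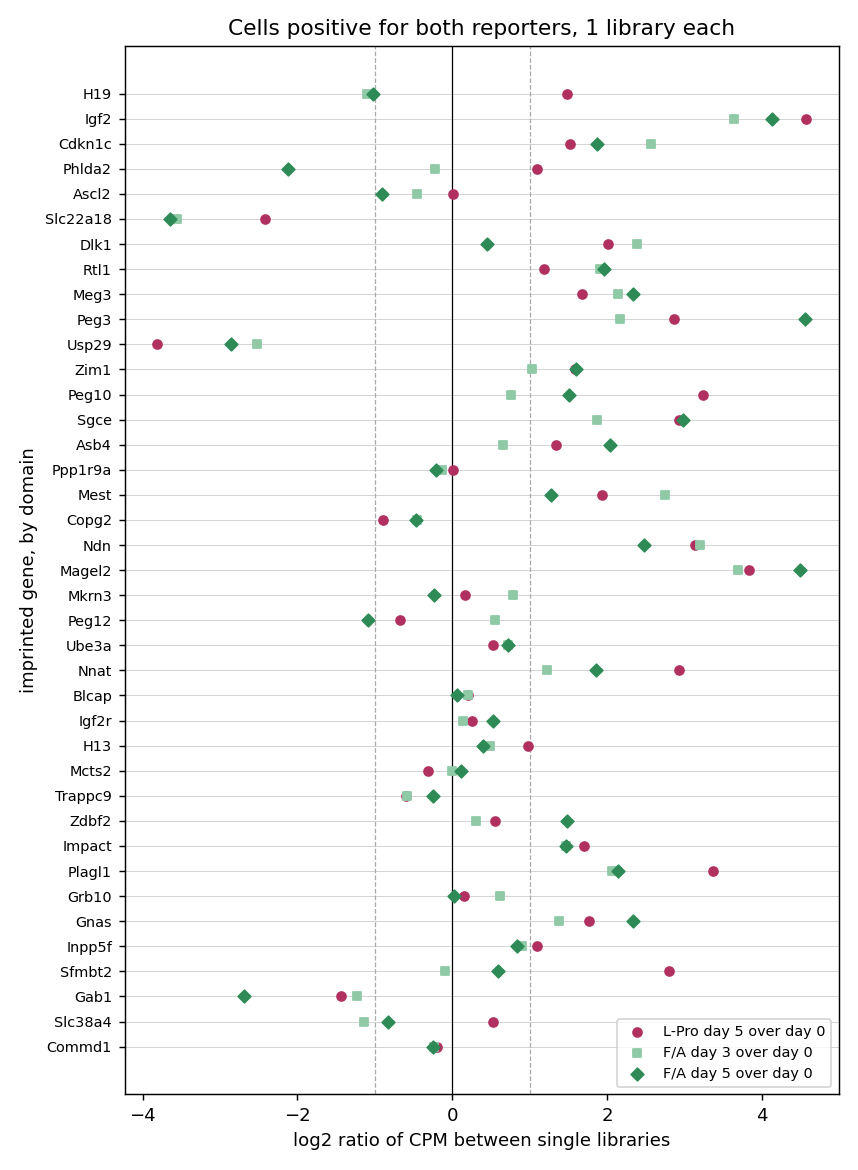
Log2 ratio of CPM to the day 0 library for 39 imprinted genes with more than 3 counts in each of the 4 libraries of experiment A (1 library each, no error can be given), with dashed lines at 2-fold. Igf2, Peg3 and Magel2 have the points furthest right, and Usp29 and Slc22a18 furthest left.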

How the data were processed

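For experiment B the authors deposited, per the file headers, mmseq gene estimates on a natural log scale (FPKM before the log), beside the count of fragments unique to each gene and an effective length. For experiment A the deposited values are raw read counts per Ensembl gene. The submitters' processing notes name the mm9 (NCBIM37) build, CASAVA, TopHat2 2.0.13, Bowtie, HTSeq 0.6.1p1 and DESeq without their roles. The strand setting is not given in the sources used here, and the authors' combined tables were not used. Totals of experiment A were taken over every row of the deposited counts.

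Estimated counts were rebuilt from the expression value, the effective length and the mapped fragments, and rounded. They were fitted for all 10 libraries with edgeR 4.0.16 in R 4.3.3 (filterByExpr, TMM, quasi-likelihood F test, Benjamini-Hochberg adjustment over 16033 genes, call under 0.05). The biological coefficient of variation was 0.238 with 5 residual degrees of freedom, and the procedure was tested on simulated data. Experiment A was scaled to TMM CPM and not tested. Counting intervals are exact Poisson-based 95% intervals and cover counting error only. Symbols come from GENCODE, promoter sequences from RefSeq (GRCm38.p6), which is another build than that of the files, so the coordinates printed are those of GRCm38.p6. The members, the gene lists and the tests were chosen with earlier results of these data known. Members given in every library are the 22 with the largest change among those called in at least 1 comparison with a mean of at least 2 CPM in their highest medium, and both genes of reciprocal or overlapping pairs such as H19 with Igf2 and Nnat with Blcap. Alternatives were RLE scaling, no filter, unique hits, a replicate block, DESeq2 1.42.0, the 4 compared libraries alone and leaving out each library.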

Additional observations from a re-analysis of the deposited data

How the results depend on the processing

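None of the 87 fold changes of single members that were checked reversed under the alternatives run. Not all of the 87 are printed above. Leaving out 1 library moved the number of members called to 5 to 10 for L-Pro/LIF, 0 for VitC/LIF in each of the 4 fits, 17 to 21 for 2i/LIF, 16 to 26 for F/A and 9 to 11 for L-Pro/LIF over VitC/LIF. Such a fit leaves 1 sample in a medium, which is assumed to vary like the other groups, and has fewer samples. Calls held in each of their 4 leave-one-out fits for 16 of 25 members in 2i/LIF, 16 of 22 in F/A, 5 of 16 in L-Pro/LIF and 8 of 16 for L-Pro/LIF over VitC/LIF. The count for VitC/LIF was 2 (108 over all genes). It was 5 without the filter on low counts (263 over all genes), 6 on unique hits (243) and 9 in DESeq2 (430). The cause was not tested. Of the 87, 81 kept their side of the threshold in DESeq2, 86 with RLE scaling, 79 without the filter, 85 on unique hits and 77 on the 4 compared libraries alone. Replicate numbers are shared across the media, but the labels do not say what they mark. The correlation of deviations between same-numbered libraries ran from 0.0985 to 0.518 over the pairs of media. With the replicate number as a block the members called were 13 in L-Pro/LIF, 2 in VitC/LIF, 25 in 2i/LIF, 22 in F/A and 16 for L-Pro/LIF over VitC/LIF, and the calls of Ascl2, Blcap and Peg12 in L-Pro/LIF were not made (adjusted p = 0.0598, 0.0512 and 0.0578). In experiment A a floor of 5 CPM gave 19, 16, 17 and 9 members past 2-fold in place of 24, 20, 23 and 10. Having 2 libraries a medium, the shallow F/A replicate 1, and unseparated parental copies limit these results. The changes of Airn, Rasgrf1, Dlk1 and Usp29 rest on few counts, as does that of Magel2 in 2i/LIF.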

Other observations

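Rtl1 was at 24.4 to 91.0 CPM in the 10 libraries of experiment B and at 1.77 to 6.92 CPM in the 4 of experiment A. The 2 experiments differ in RNA extraction and in how reads were counted, and their levels were not tested against each other.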
